A study of Homo sapiens
Mus musculus with 6 samples.

Results

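The human side of the co-culture was compared between HEK-Jag1Ndr and HEK-Jag1WT, the HEK293-Flp-In lines that carry the Nodder form and the wild-type form of the Notch ligand Jag1. All human genes were taken, in the 4 wells that held either line of the 6 wells in the series, and the wells were paired by their C2C12 partner. Of 23855 human entries, 13596 had enough reads to be tested. The mouse cells in these wells were C2C12 myoblasts, either the control line or a line carrying full-length Notch1 (C2C12-Notch1). All C2C12 cells settled for 8 h and were transfected with 1.6 ug per well of empty pcDNA5 plasmid. The HEK cells were added 18 h after the transfection, and the wells were lysed after 6 h together. The labels put both Jag1 lines under hygromycin, the C2C12-Notch1 line under puromycin, and name neither drug for HEK-control or C2C12-control. There was 1 well per combination of lines.

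Jag1 is a membrane-bound ligand that binds Notch receptors on a neighbouring cell, and the pull on the receptor exposes it to cleavage and releases its intracellular part, which then acts on genes in the nucleus. Nodder is a missense allele of mouse Jag1, studied as a model of Alagille syndrome, a disorder of bile ducts, heart and other organs. HEK293-Flp-In cells are human embryonic kidney cells with a recombination site at which a transgene is placed, so such lines are meant to differ only in the insert. In this assay they send the ligand, and the state of the sending cells is what the human reads show.

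The lines were checked first by their ligand. Reads on Jag1 in the mouse table, per 1000000 human reads of the same well, stood at 27.0 and 27.2 in the HEK-control wells with C2C12-control and C2C12-Notch1. They stood at 8221 and 8701 in the HEK-Jag1WT wells and at 8878 and 9448 in the HEK-Jag1Ndr wells. Both Jag1 lines were thus far above the control line, and the HEK-Jag1Ndr wells were above both HEK-Jag1WT wells (9163 ± 403 against 8461 ± 339, SD, n = 2, a ratio of 1.08). Divided by the gene reads of both species instead, the ratio turned to 0.975, so no order of the ligand's level between the lines is read from these values. The reads do not tell the wild-type from the Nodder transcript here, and the label of each line was taken as given.

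Human reads numbered 4081452 to 10292878 per well over the series, and 5150941 to 7142799 in the 4 wells compared. Mouse reads made up 47.2% and 29.6% of the gene reads in the HEK-Jag1WT wells and 52.7% and 36.5% in the HEK-Jag1Ndr wells, so the mouse share was higher beside HEK-Jag1Ndr in both pairs. In such mixed wells, fewer cells of a type and less RNA per cell cannot be told apart. Of the 16 C2C12 markers, MYF5, MYOG and TMEM8C were at 0 human reads in all 6 wells, and MYOD1 had at most 3 reads in a well. Others of the list were read in the human table: TNNT1, a troponin gene, had 176 and 188 reads in the HEK-Jag1WT wells and 120 and 94 in the HEK-Jag1Ndr wells, and COL1A1 56 and 50 against 211 and 154. COL3A1 had 4 and 4 against 92 and 87. PAX7 had 26 and 17 against 31 and 29, and CDH15 19 and 15 against 26 and 26. These reads are not scaled for depth, and the HEK-Jag1Ndr wells held more human reads (7142799 and 6683428 against 5150941 and 5374291). PAX7 differed by only 0.11 on the log2 scale and was not called different by edgeR. No higher level of PAX7 or CDH15 in HEK-Jag1Ndr is therefore read from these counts. Of the 6 members tested, 3 were higher in HEK-Jag1Ndr and 1 lower at an edgeR adjusted p under 0.05, with a median log2 difference of 0.56. That was 66.7% of the members, against 57.7% of all tested genes. The summed human RPKM of that list, RPKM being reads per kilobase of gene and per 1000000 human reads, was 41.3 and 40.1 in the HEK-Jag1WT wells, 28.6 and 26.2 in the HEK-Jag1Ndr wells, and 29.9 and 30.5 in the HEK-control wells. TNNT1 made up most of this sum, with a mean of 24.4 RPKM over the 6 wells. The 17 HEK markers summed to between 814 and 969 RPKM in every well, with SALL4, PAX8 and STMN2 at 0 reads in all 4 Jag1 wells.

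Most tested genes were called different between the lines by edgeR, but not by DESeq2. The edgeR quasi-likelihood test called 7843 of 13596 genes at an adjusted p under 0.05 (57.7%), 3966 of them higher in HEK-Jag1Ndr (29.2%) and 3877 lower (28.5%). A change of over 2-fold was called in 1408 genes (10.4%), 875 higher (6.44%) and 533 lower (3.92%), and a change of over 8-fold in 147, of which 115 were higher. The log2 differences of all tested genes had quartiles of -0.33 and 0.38 and a median of -0.01. The beside-C2C12-control and beside-C2C12-Notch1 pairs gave opposite signs in 7 of the called genes and in 1 of those over 2-fold, and the gap between the pairs had a median of 0.287 on the log2 scale among genes over 2-fold. DESeq2 called a minority, 4866 of the same 13596 genes, 2564 higher and 2302 lower. Each HEK line was a single line, so the allele and the line that carries it cannot be told apart, and since no label speaks of independent cultures, the p-values reflect only how far these particular wells vary, possibly for technical reasons.

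**Figure D1:**
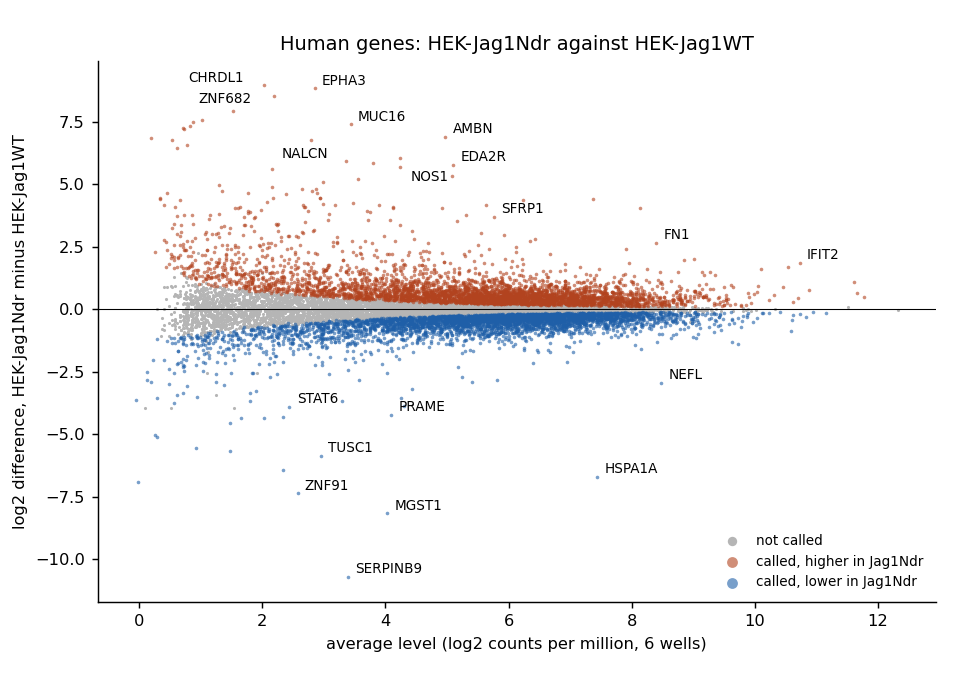
Each point is 1 of the 13596 tested human genes. The horizontal axis is the average level over the 6 wells in log2 CPM, counts per 1000000, and the vertical axis is the log2 difference of HEK-Jag1Ndr minus HEK-Jag1WT. Orange and blue points are the 3966 genes called higher and the 3877 called lower, grey points were not called, and SERPINB9 and HSPA1A lie far below the cloud while CHRDL1, EPHA3 and AMBN lie far above it. Genes with 0 reads in a line, such as these apart from AMBN and HSPA1A, are drawn at fitted values that depend on a prior count and are no measure of size.

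The genes with the largest differences were read in one line and absent or nearly absent in the other. In the values that follow, the well with C2C12-control comes first and the well with C2C12-Notch1 second. CHRDL1, which encodes a secreted antagonist of bone morphogenetic proteins (BMPs), had 0 and 0 reads in the HEK-Jag1WT wells, 77 and 56 reads in the HEK-Jag1Ndr wells and 3 and 10 reads in the HEK-control wells. It was at least 34.3-fold higher in HEK-Jag1Ndr, set against 3 reads over the group. EPHA3, a receptor tyrosine kinase for ephrins, had 0 and 0 reads, 72 and 51 reads and 41 and 104 reads in the same order of lines and was at least 31.7-fold higher. The zinc finger gene ZNF682 had 0 and 0 reads, 46 and 52 reads and 19 and 48 reads and was at least 25.3-fold higher. All 3 genes were read in every HEK-control and HEK-Jag1Ndr well and in neither HEK-Jag1WT well.

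Other genes of the highest 12 were nearly off in HEK-Jag1WT. MUC16, which encodes the large cell surface mucin that carries the CA125 antigen, had 1 and 0 reads against 123 and 138 reads in HEK-Jag1Ndr, a ratio of 202 with an exact conditional 95% counting interval of 35.9 to 8009. CYP7B1, an oxysterol hydroxylase, had 1 and 0 reads against 79 and 90 reads (ratio 131, interval 23.2 to 5197). PYCR1, which makes proline in mitochondria, had 2 and 1 reads against 155 and 123 reads (ratio 71.7, interval 24.3 to 349.9). These wells did not overlap between the lines for any of the 3 genes. Here and below, most genes were named for a large difference or a small p. Their lack of overlap is therefore a description and adds no support. NALCN, a sodium leak channel gene, had a ratio of 66.6 (interval 18.2 to 554), the zinc finger gene ZNF160 one of 64.2 (17.5 to 535) and PSIMCT-1 one of 58.8 (10.2 to 2354), each from 1 or 2 reads over the HEK-Jag1WT wells. These intervals cover counting error only.

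The other 3 of the highest 12 had more reads in HEK-Jag1WT, 6 to 13 over both wells. AMBN, the enamel matrix gene ameloblastin, stood at 0.392 and 0.188 RPKM in the HEK-Jag1WT wells, 34 and 36.1 RPKM in the HEK-Jag1Ndr wells and 7.85 and 8.76 RPKM in the HEK-control wells, a log2 difference of 6.91 between the Jag1 lines (standard error 0.236, adjusted p 1.71e-35 by edgeR). EDA2R, the receptor for ectodysplasin A2, stood at 0.488 and 0.22 RPKM, 18.7 and 21.5 RPKM and 7.24 and 7.62 RPKM in that order of lines. The log2 difference was 5.79 (adjusted p 2.56e-34 by edgeR), with counting intervals of 4.27 to 6.35 and 5.28 to 8.52 beside the same partners. NOS1, the neuronal nitric oxide synthase gene, stood at 0.0553 and 0.0705 RPKM, 2.89 and 2.93 RPKM and 1.23 and 1.32 RPKM. The log2 difference was 5.71 (adjusted p 6.94e-28 by edgeR), with counting intervals of 4.36 to 8.22 and 4.22 to 7.49. In all 3 the HEK-control wells lay between the Jag1 lines, without overlap.

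Among the lowest 12, SERPINB9, which encodes an inhibitor of granzyme B, had 156 and 194 reads in the HEK-Jag1WT wells, 0 and 0 reads in the HEK-Jag1Ndr wells and 7 and 29 reads in the HEK-control wells. It was at least 151-fold lower in HEK-Jag1Ndr than in HEK-Jag1WT. MGST1, a membrane-bound glutathione transferase gene, had 131 and 152 reads, 0 and 1 reads and 104 and 229 reads in that order of lines, a ratio of 366 in favour of HEK-Jag1WT with a counting interval of 65.1 to 14490. The control line was thus near HEK-Jag1WT for MGST1 and far below it for SERPINB9. TUSC1 had 74 and 73 reads against 1 and 2 reads (ratio 63.3, interval 21.2 to 310.5) and the non-coding transcript CECR7 had 75 and 76 reads against 1 and 1 reads (ratio 97.5, interval 26.5 to 813). The zinc finger gene ZNF91 had 11 and 23 reads against 0 and 0 reads, at least 14.6-fold lower, while HEK-control had 51 and 134 reads.

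HSPA1A, which encodes an inducible heat shock protein, was lower by the most among well expressed genes, but only as counted apart from its near-identical copy. It stood at 484 and 499 RPKM in the HEK-Jag1WT wells, 4.41 and 4.59 RPKM in the HEK-Jag1Ndr wells and 311 and 315 RPKM in the HEK-control wells, a log2 difference of -6.72 (standard error 0.114, adjusted p 1.29e-52 by edgeR). HSPA1B, the copy, stood at 1011 and 1091 RPKM, 1823 and 1712 RPKM and 4705 and 4531 RPKM in the same order, a log2 difference of 0.77. The summed reads of both were higher in HEK-Jag1Ndr by 0.37 on the log2 scale beside C2C12-control and by 0.19 beside C2C12-Notch1. A loss of reads from the pair is therefore not shown, and how the authors' counting split the copies is not given in any source used here.

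The rest of the lowest 12 were genes with average levels of 2.02 to 4.30 log2 CPM, where the ranking began at 2. PRAME, a cancer-testis antigen gene, stood at 10.8 and 9.63 RPKM in the HEK-Jag1WT wells against 0.358 and 0.568 RPKM in the HEK-Jag1Ndr wells, a log2 difference of -4.22 (standard error 0.26, adjusted p 2.44e-22 by edgeR). STAT6, the transcription factor of interleukin-4 signalling, stood at 2.77 and 2.55 RPKM against 0.165 and 0.205 RPKM, a difference of -3.91. CPT1C, the brain form of carnitine palmitoyltransferase, stood at 8.21 and 7.33 RPKM against 0.684 and 0.453 RPKM, a difference of -3.66. None of the 3 had overlapping wells between the lines. TCF24 differed by -4.31 and the antisense transcript ZNF503-AS2 by -3.86, although the library kit does not mark strand and reads from ZNF503 cannot be told apart from its antisense where they overlap. ZNF701 was called at -4.34 on 2 and 2 reads in the HEK-Jag1WT wells and none in the HEK-Jag1Ndr wells, at least 1.72-fold lower. That call was lost in 7 of 13 alternative fits, with edgeR, DESeq2 or limma adjusted p values up to 0.502.

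**Figure D2:**
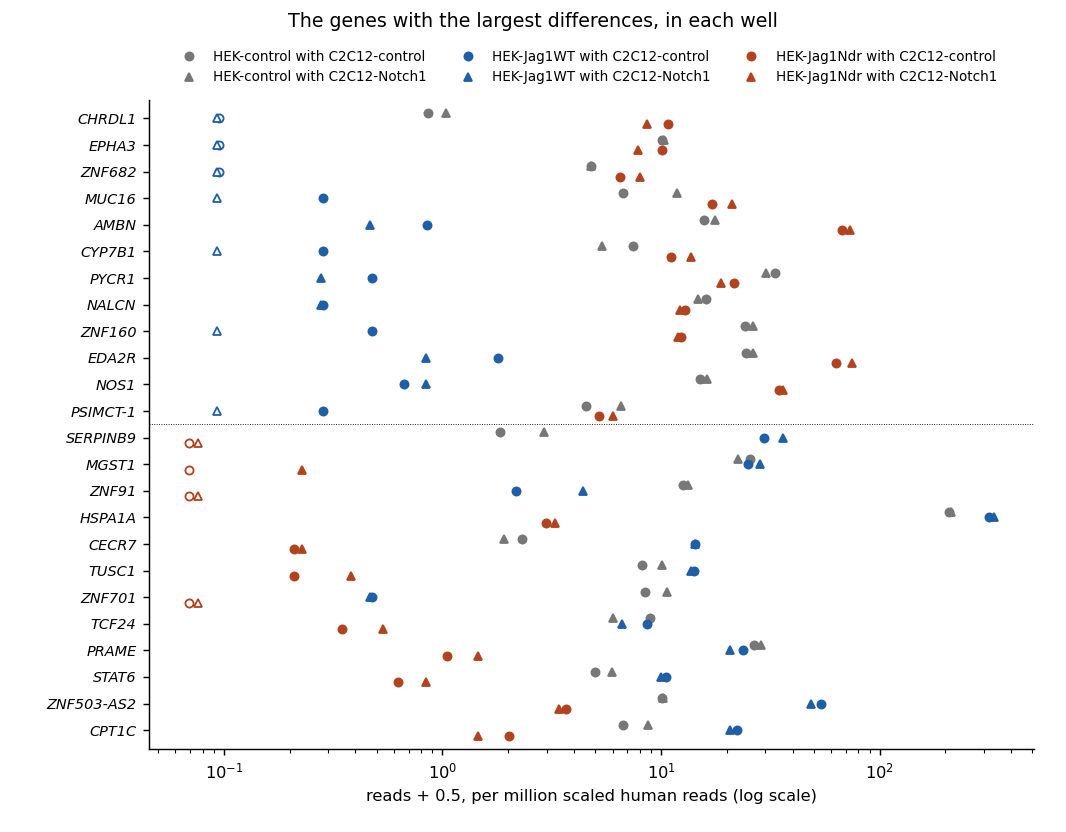
The horizontal axis gives reads plus 0.5 per 1000000 scaled human reads on a log scale, for the 12 highest (above the dotted line) and 12 lowest genes in each of the 6 wells. Circles are wells with C2C12-control, triangles wells with C2C12-Notch1, and open symbols wells with 0 reads. The 2 wells of a HEK line lie close together, and the grey HEK-control wells lie near HEK-Jag1Ndr for EPHA3 and NALCN and near HEK-Jag1WT for MGST1 and TCF24.

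The HEK-control wells gave a reference level. Among the 875 genes over 2-fold higher in HEK-Jag1Ndr, the control level lay between the Jag1 lines in 665 and was nearer to HEK-Jag1Ndr in 620 (70.9%). For these genes the median log2 difference from HEK-control was 0.47 in HEK-Jag1Ndr and -1.11 in HEK-Jag1WT. Among the 533 genes over 2-fold lower, the control level lay between in 392, was nearer to HEK-Jag1Ndr in 272 and to HEK-Jag1WT in 261, and the medians were -0.68 and 0.68. Over all 7843 called genes, the control level lay between in 4331 and was nearer to HEK-Jag1Ndr in 4742 (60.5%). The control level was thus more often near HEK-Jag1Ndr than near HEK-Jag1WT among all called genes. The share was larger among the genes over 2-fold higher. This is a description with no test, since all these comparisons share wells. Against HEK-control the same fit called 46.1% of genes for HEK-Jag1Ndr and 54.3% for HEK-Jag1WT.

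The Notch pathway of the sending cells was read next. Human JAG1, the endogenous copy of the ligand gene, stood at 6.07 and 5.16 RPKM in the HEK-Jag1WT wells, 8.6 and 10.2 RPKM in the HEK-Jag1Ndr wells and 8.33 and 9.23 RPKM in the HEK-control wells. HEK-Jag1WT was the low line, without overlap with the others, and the log2 difference between the Jag1 lines was 0.77 (standard error 0.108, adjusted p 9.67e-09 by edgeR). Of the 9 tested receptors and ligands, JAG1 was higher and 4 were lower, with a median of -0.13 beside -0.01 over all genes. The share called was 55.6%, against 57.7% of all tested genes. The ligand genes DLL3 and JAG2 were lower by log2 differences of -1.33 and -0.63, and DLL4 by -0.78, while NOTCH1 stood at 0.06, NOTCH2 at -0.03 and DLL1 at -0.06 without a call. The receptor gene NOTCH3 was called lower, at -0.36, and that call was lost without the C2C12 term (edgeR adjusted p 0.140).

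Of 12 tested Notch target genes, 6 were higher and 3 lower in HEK-Jag1Ndr, with a median of 0.53. Here and for each list that follows, the shares of all tested genes were 29.2% higher and 28.5% lower, with a median of -0.01. HES1, a repressor that Notch induces in many cells, stood at 19.3 and 16.7 RPKM in the HEK-Jag1WT wells, 33.7 and 34.2 RPKM in the HEK-Jag1Ndr wells and 28.4 and 24.8 RPKM in the HEK-control wells, a log2 difference of 0.94 (standard error 0.113, adjusted p 1.09e-10 by edgeR). HEY2, a related repressor, stood at 8.39 and 10.6 RPKM, 19.5 and 19.6 RPKM and 14.1 and 16.3 RPKM in that order, a difference of 1.07. CCND1, the cyclin D1 gene, stood at 27.8 and 28.1 RPKM, 56.8 and 56.9 RPKM and 50.6 and 50.5 RPKM, a difference of 1.05. In all 3 genes HEK-Jag1WT was the lowest line and HEK-Jag1Ndr the highest. HEYL was higher by 1.05 and DTX1 by 1.90, HES7 and HEY1 were lower, with differences of -3.06 and -0.35, and NRARP stood at 0.05 without a call.

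Of 29 tested genes of the Notch machinery, 10 were higher and 4 lower, with a median of 0.09; 48.3% were called, under the 57.7% of all tested genes. PSENEN, a subunit of the gamma-secretase that cleaves Notch, stood at 77.9 and 79.2 RPKM in the HEK-Jag1WT wells, 34.6 and 31.5 RPKM in the HEK-Jag1Ndr wells and 74.7 and 73 RPKM in the HEK-control wells, a log2 difference of -1.22 (standard error 0.114, adjusted p 1.82e-14 by edgeR). MIB1, the ubiquitin ligase that lets a sending cell take up its ligand, was lower, with a difference of -0.29. The glycosyltransferase genes POFUT1 and RFNG, which modify Notch and its ligands, were higher by 0.64 and 0.78, and the co-repressor gene SPEN by 0.59. POFUT1 on chromosome 20 and RFNG on chromosome 17 lie in runs of neighbouring genes all called higher, with medians of 0.56 and 0.77. The largest member differences were those of NEURL, another ubiquitin ligase of ligand uptake, at -1.10, PSENEN, and the co-activator gene MAML3 at 1.03.

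Of 34 tested genes of the interferon response, which cells switch on against viruses, 24 were higher in HEK-Jag1Ndr, 14 of these over 2-fold, and 2 were lower, with a median of 0.48. IFIH1, a cytoplasmic sensor of double-stranded RNA, stood at 15.7 and 32.7 RPKM in the HEK-Jag1WT wells, 93 and 155 RPKM in the HEK-Jag1Ndr wells and 34.4 and 56.9 RPKM in the HEK-control wells, a log2 difference of 2.40 (standard error 0.066, adjusted p 1.18e-40 by edgeR). IFIT2, which encodes an antiviral RNA-binding protein, stood at 166 and 314 RPKM, 646 and 1052 RPKM and 275 and 441 RPKM in that order, a difference of 1.87 (standard error 0.0467, adjusted p 1.34e-40 by edgeR). IFIT1 stood at 116 and 213 RPKM, 394 and 624 RPKM and 278 and 431 RPKM, a difference of 1.67. In each of these genes the well with C2C12-Notch1 was higher than the well with C2C12-control in all 3 HEK lines, HEK-Jag1WT was lowest and HEK-Jag1Ndr highest within each partner, and the Jag1 lines did not overlap.

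IFIT3 was higher by 1.59, IFI44L by 2.57, IFI6 by 2.16, BST2, which tethers budding virus, by 1.69 and OASL by 1.48. ISG15 was higher by 0.55, while the transcription factor gene IRF7 was lower, with a difference of -0.57 and MX1 stood at 0.38 without a call. Without the C2C12 term the calls of IFIH1, IFIT1, IFIT2 and IFIT3 were lost, with edgeR adjusted p values of 0.0506, 0.0874, 0.0770 and 0.0950. Against HEK-control the list's median was 0.32 for HEK-Jag1Ndr, with 18 of 34 higher and 7 lower, and -0.35 for HEK-Jag1WT, with 4 higher and 21 lower. The background of higher and lower calls was 22.6% and 23.5% for HEK-Jag1Ndr and 24.9% and 29.4% for HEK-Jag1WT.

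Of 46 tested extracellular matrix genes, which encode collagens, laminins and their partners, 32 were higher, 17 of these over 2-fold, and 6 were lower, none over 2-fold, with a median of 0.57. FN1, the fibronectin gene, stood at 9.93 and 14.3 RPKM in the HEK-Jag1WT wells, 66 and 84.5 RPKM in the HEK-Jag1Ndr wells and 31.1 and 40.9 RPKM in the HEK-control wells, a log2 difference of 2.66 (standard error 0.0593, adjusted p 8.26e-46 by edgeR). LAMB2, a laminin chain of basement membranes, stood at 10.6 and 9.51 RPKM, 33.9 and 29.8 RPKM and 32.8 and 28.2 RPKM, a difference of 1.69. SPARC, a collagen-binding protein gene, stood at 14.8 and 13.2 RPKM, 42.4 and 36.9 RPKM and 24 and 22.1 RPKM, a difference of 1.53. The Jag1 lines did not overlap in any of the 3, and HEK-Jag1WT was the lowest line in each.

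COL12A1 was higher by 1.71, COL5A2 by 2.93, LAMA2 by 3.37 and COL3A1 by 4.08. Mouse myoblasts express several of these genes strongly and the mouse share was higher beside HEK-Jag1Ndr, so human reads were also set against the mouse reads of the same gene. COL3A1 reads in the human table were 0.0326% and 0.084% of the mouse Col3a1 reads in the HEK-Jag1WT wells and 0.452% and 1.12% in the HEK-Jag1Ndr wells. FN1 reads were 2.21% and 5.91% of mouse Fn1 reads in the HEK-Jag1WT wells and 11.1% and 30.4% in the HEK-Jag1Ndr wells. COL5A2 reads were 0.570% and 0.854% of the mouse ones in HEK-Jag1WT and 3.35% and 4.59% in HEK-Jag1Ndr, SPARC reads 2.18% and 3.69% against 5.24% and 7.48%, and COL1A1 reads 1.26% and 18.4% against 2.77% and 36.0%. For these 5 genes, chosen after their values were seen, the percentage was higher in HEK-Jag1Ndr beside both partners. COL3A1 had 4 human reads in each HEK-Jag1WT well. The part of mouse reads in the differences of the matrix genes was not tested. The basement membrane genes AGRN and LAMB1 were lower, by differences of -0.74 and -0.43, and LAMC1 stood at -0.01 without a call.

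Of 22 tested cadherin and integrin genes, which encode receptors for the matrix or neighbouring cells, 13 were higher and 1, the epithelial cadherin gene CDH1, was lower, with a median of 0.59 (63.6% called, against 57.7% of all genes). ITGA6, a laminin receptor subunit, stood at 7.48 and 6.77 RPKM in the HEK-Jag1WT wells against 16.2 and 15.9 RPKM in the HEK-Jag1Ndr wells, a log2 difference of 1.21 (standard error 0.0929, adjusted p 6.64e-18 by edgeR), and ITGB8 was higher by 2.17, while ITGB1 stood at 0.02 without a call. Of 20 tested Eph receptors and ephrins, which signal between touching cells, 10 were higher and 4 lower, with a median of 0.47. EFNB2, a membrane-bound ephrin gene, stood at 29.4 and 37.2 RPKM, 64.1 and 74.9 RPKM and 62.4 and 74.8 RPKM in HEK-Jag1WT, HEK-Jag1Ndr and HEK-control, a difference of 1.09, so that HEK-Jag1Ndr lay at the control level. EPHB1 was higher by 2.57, and EFNB3 was lower, with a difference of -0.70.

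Signalling targets were mixed by pathway. Of 26 tested genes of the transforming growth factor beta and BMP response, 12 were higher and 3 lower, with a median of 0.55; 57.7% were called, the same share as of all tested genes. BMP2, a secreted ligand, stood at 3.18 and 3.04 RPKM in the HEK-Jag1WT wells, 10.4 and 10.8 RPKM in the HEK-Jag1Ndr wells and 1.52 and 2.31 RPKM in the HEK-control wells, a log2 difference of 1.78 (standard error 0.156, adjusted p 1.23e-15 by edgeR). ID2, an inhibitor of differentiation that BMP signalling induces, stood at 35 and 34.7 RPKM, 91 and 87.8 RPKM and 74.9 and 69.3 RPKM, a difference of 1.38, and ID1 was higher by 2.18 and ID3 by 1.24. The call of ID1 was lost without the C2C12 term (edgeR adjusted p 0.0517).

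Targets of YAP, the co-activator of the Hippo pathway, had 9 higher and 6 lower of 24, with a median of -0.09. CTGF, a matrix-associated growth factor gene, stood at 25.8 and 28 RPKM in the HEK-Jag1WT wells, 66.9 and 87.4 RPKM in the HEK-Jag1Ndr wells and 19.7 and 27.4 RPKM in the HEK-control wells, a log2 difference of 1.54 (standard error 0.0773, adjusted p 1.29e-26 by edgeR). The related gene CYR61 was higher by 1.04 and the membrane repair gene MYOF by 3.91, while ANKRD1 was lower, with a difference of -1.24. The call of CYR61 was lost without the C2C12 term (edgeR adjusted p 0.103). Immediate early genes, the first to respond to growth signals, had 12 higher and 6 lower of 22, with a median of 0.51. NR4A1, a nuclear receptor gene of that kind, stood at 36 and 37.2 RPKM, 89.9 and 91 RPKM and 30.2 and 32.1 RPKM, a difference of 1.34, with HEK-Jag1WT near the control level. EGR3 went the other way, at 15.6 and 19 RPKM, 4.19 and 5.99 RPKM and 4.32 and 5.73 RPKM, a difference of -1.75, with HEK-Jag1Ndr near the control level.

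Feedback genes of fibroblast growth factor and MAP kinase signalling had 10 higher and 2 lower of 20, with PHLDA1 at 2.21 and SPRY4 at 1.18 and a median of 0.29. Genes of NF-kB and cytokines had 6 higher and 2 lower of 10, with a median of 0.63, TNFAIP3, a brake on NF-kB, at 0.96 and the cytokine gene LIF at 0.83. BIRC3 was called higher at 1.11, and that call was lost with DESeq2, without the HEK-Jag1WT well with C2C12-control and without the HEK-Jag1Ndr well with C2C12-Notch1, with adjusted p values up to 0.171 over all alternatives. Wnt pathway genes split evenly, 12 higher and 11 lower of 36, with a median of 0.10. Among them SFRP1, a secreted Wnt antagonist, stood at 1.27 and 1.17 RPKM in the HEK-Jag1WT wells, 15 and 16.1 RPKM in the HEK-Jag1Ndr wells and 18.3 and 17.4 RPKM in the HEK-control wells, a log2 difference of 3.69 (standard error 0.149, adjusted p 1.64e-31 by edgeR), and its relative SFRP2 was lower, with a difference of -3.02. The antagonist gene DKK1 was higher by 2.91, and the Wnt transcription factor gene LEF1 was lower, with a difference of -0.86.

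Of 22 tested targets of p53, the transcription factor that answers DNA damage, 19 were higher and 1 lower, with a median of 0.48 (90.9% called, against 57.7% of all genes). ZMAT3, an RNA-binding protein gene, stood at 8.84 and 9.21 RPKM in the HEK-Jag1WT wells, 24.7 and 23.2 RPKM in the HEK-Jag1Ndr wells and 18.7 and 18 RPKM in the HEK-control wells, a log2 difference of 1.43 (standard error 0.0698, adjusted p 3.47e-27 by edgeR). FDXR, a mitochondrial reductase gene, stood at 8.07 and 7.37 RPKM, 22.5 and 24.6 RPKM and 23.2 and 23 RPKM, a difference of 1.61, and TNFRSF10B, a death receptor gene, was higher by 0.62. The cell cycle inhibitor gene CDKN1A was higher by 0.26 and MDM2, which degrades p53, by 0.50, while the apoptosis gene BBC3 was lower, with a difference of -1.35. Against HEK-control the list's median was -0.04 in HEK-Jag1Ndr, with 5 higher and 6 lower, and -0.54 in HEK-Jag1WT, with 1 higher and 17 lower. Of all tested genes, 22.6% were higher and 23.5% lower in HEK-Jag1Ndr than in HEK-control, and 24.9% and 29.4% in HEK-Jag1WT.

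Of 35 tested cell cycle genes, 22 were lower and 7 higher, none over 2-fold, with a median of -0.22. MCM7, a subunit of the replicative helicase, stood at 902 and 889 RPKM in the HEK-Jag1WT wells, 489 and 477 RPKM in the HEK-Jag1Ndr wells and 552 and 563 RPKM in the HEK-control wells, a log2 difference of -0.86 (standard error 0.042, adjusted p 3.08e-27 by edgeR). MCM3 was lower, with a difference of -0.66 and the proliferation marker gene MKI67 by -0.39, while RRM2, a subunit of ribonucleotide reductase, was higher by 0.46. MCM7 lies in a stretch of chromosome 7 and MCM3 in one of chromosome 6, both described further on, where neighbouring genes were lower as well. Oxidative phosphorylation genes, which encode the respiratory chain, had 14 higher and 21 lower of 53, none over 2-fold, with a median of -0.13. Cholesterol synthesis genes had 4 higher and 9 lower of 23, with a median of -0.10, HMGCS1 at 0.63 and SREBF2, the pathway's transcription factor, at -0.69.

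Stress genes of the ATF4 and endoplasmic reticulum responses had 15 higher and 6 lower of 31, with a median of 0.31. SLC7A5, a transporter of large amino acids, stood at 30 and 28.7 RPKM in the HEK-Jag1WT wells, 81.9 and 79.1 RPKM in the HEK-Jag1Ndr wells and 125 and 130.1 RPKM in the HEK-control wells, a log2 difference of 1.48 (standard error 0.0578, adjusted p 2.52e-32 by edgeR), and the cystine transporter gene SLC7A11 was higher by 2.34. ATF4 itself was lower, with a difference of -0.49, and SHMT2, a mitochondrial enzyme of one-carbon metabolism, by -0.89. Heat shock genes had 8 higher and 6 lower of 18, with a median of 0.14 and the cytosolic chaperone gene HSP90AA1 at 1.10. HSP90AA1 lies in a run of 27 neighbouring genes on chromosome 14 all called higher, with a median of 0.89. Hypoxia and glucose genes had 14 higher and 5 lower of 30, with a median of 0.18, the hexokinase gene HK2 at 1.38 and the glucose transporter gene SLC2A3 at 1.65, whose call was lost without the C2C12 term (edgeR adjusted p 0.0987).

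Genes of cell identity differed gene by gene. NEFL, the neurofilament light chain that HEK cells are known to express, stood at 208 and 195 RPKM in the HEK-Jag1WT wells, 27.3 and 24.2 RPKM in the HEK-Jag1Ndr wells and 62.8 and 59.1 RPKM in the HEK-control wells. HEK-Jag1WT was the high line and HEK-Jag1Ndr the low one, a log2 difference of -2.94 (standard error 0.0559, adjusted p 5.68e-50 by edgeR). Of 21 tested neuronal genes, 7 were higher and 6 lower, with a median of -0.02, CHGA, a secretory granule protein gene, at 1.87 and the axon adhesion gene L1CAM at -1.18. HOX genes, which mark position along the body axis, had 7 higher and 7 lower of 33, with a median of 0.18; 42.4% were called, against 57.7% of all tested genes. HOXA5 stood at 14.9 and 14.4 RPKM in HEK-Jag1WT against 7.1 and 4.93 RPKM in HEK-Jag1Ndr, a difference of -1.26, HOXA6 was lower, with a difference of -2.19, and HOXD9, HOXD10 and HOXA13 were higher by 1.71, 1.27 and 1.55. Of 14 tested HEK markers, 6 were higher and 3 lower, with a median of 0.24.

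Of the 5 tested clade B serpins, inhibitors of intracellular proteases, SERPINB2 was higher and 3 were lower, with a median of -0.58. SERPINB2 stood at 0.874 and 0.689 RPKM in the HEK-Jag1WT wells, 10.1 and 12.1 RPKM in the HEK-Jag1Ndr wells and 0.259 and 0.36 RPKM in the HEK-control wells, a log2 difference of 3.79 (standard error 0.267, adjusted p 1.27e-19 by edgeR). SERPINB6, a neighbour of SERPINB9 on chromosome 6, stood at 59 and 49.5 RPKM, 19.5 and 21.2 RPKM and 30.4 and 25.6 RPKM, a difference of -1.36. Retinoid response genes had 8 higher and 3 lower of 19, with a median of 0.27 and RXRB, a partner of the retinoic acid receptors, at -1.20. Zinc finger genes of chromosome 19p12, a cluster of related genes, had 6 higher and 1 lower of 23, with a median of 0.11 and ZNF85 at 3.16. Those of 19q13 had 5 higher and 9 lower of 30, with a median of -0.01 and ZNF528 at -2.12. Whether reads were split among related zinc finger genes was not tested. The single-gene values of these lists, and of ZNF682, ZNF91, ZNF160 and ZNF701, are uncertain to that extent.

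**Figure D3:**
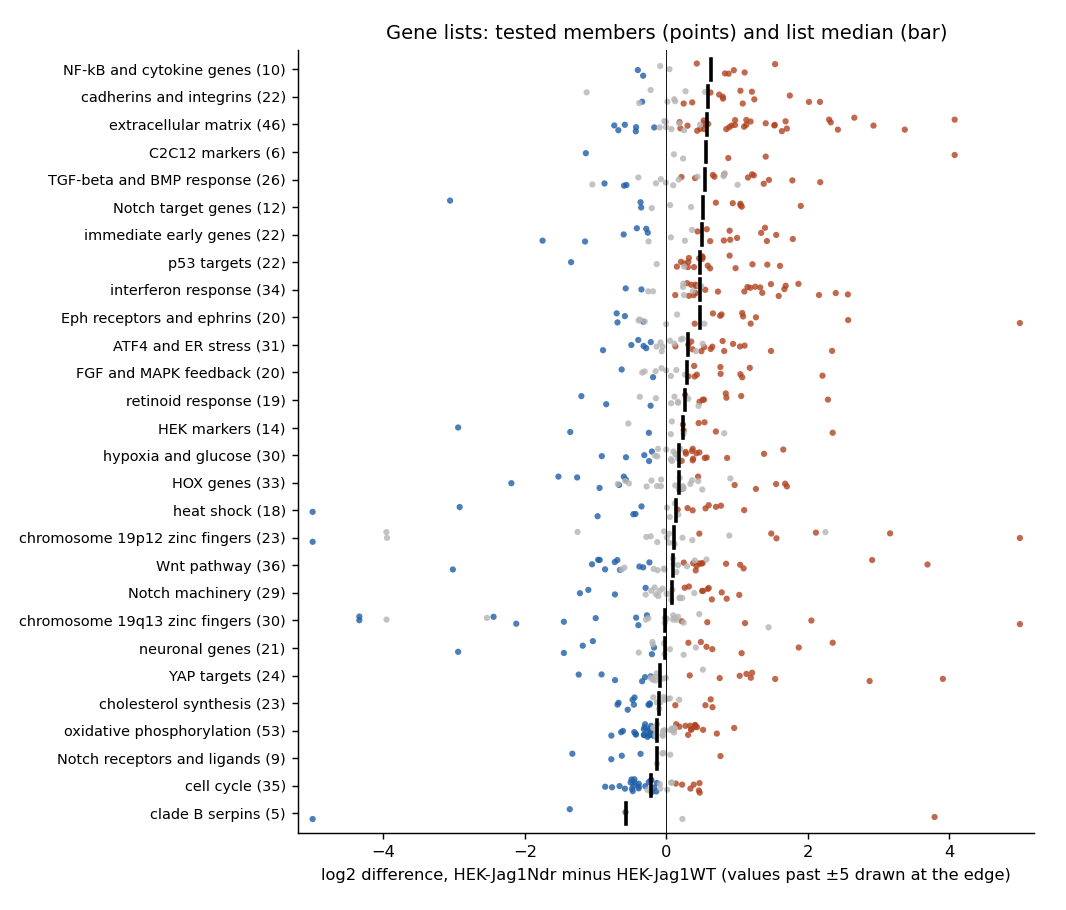
Each row is 1 of the 28 gene lists, with the number of tested members in brackets, ordered by median. The horizontal axis is the log2 difference of HEK-Jag1Ndr minus HEK-Jag1WT, with values past 5 drawn at the edge. Points are members, orange called higher, blue called lower and grey not called, and black bars are list medians, which run from -0.58 for clade B serpins to 0.63 for NF-kB and cytokine genes.

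Differences also followed the position of genes along the chromosomes. Of the tested genes, 13383 were placed by matching their RefSeq accessions to the GRCh38.p14 annotation, which was used for order only. In blocks of 40 neighbouring tested genes, 334 in all, the median log2 difference ran from -0.91 to 0.90, and the beside-C2C12-control and beside-C2C12-Notch1 values of a block differed by a median of 0.0467 and at most by 0.302. Stretches of at least 3 neighbouring blocks whose medians lay 0.25 or more from the middle of all blocks numbered 13, on 10 chromosomes, and held 4890 genes. In the 10 higher stretches, 2493 of 3907 genes were called higher (63.8%) and 185 lower (4.74%), and in the 3 lower stretches 722 of 983 were called lower (73.4%) and 48 higher. The stretches were picked on these values, so these counts are a description. The other 8493 placed genes had a median of -0.12, with 50.6% called. No DNA was measured in these wells, so gene copy number was not tested.

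**Figure D4:**
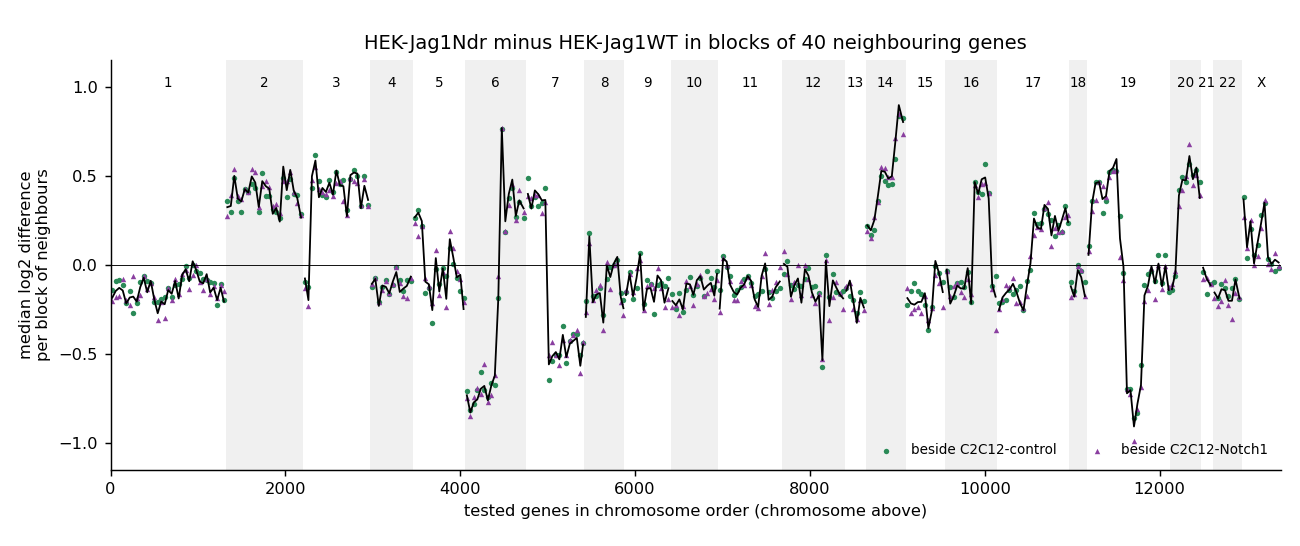
Tested genes stand in chromosome order along the horizontal axis, and the vertical axis is the median log2 difference of HEK-Jag1Ndr minus HEK-Jag1WT in each block of 40 neighbours. The line is the fitted difference, and points are the pair of wells beside C2C12-control (circles) and beside C2C12-Notch1 (triangles). Chromosomes 2, 3, 14 and 20 lie mostly above 0, chromosomes 6, 7 and 19 hold both high and low stretches, and both pairs of wells trace the same steps.

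Chromosome 6 held a lower and a higher stretch. From DUSP22 to TRAM2, 278 of 360 genes were lower and 16 higher, with a median of -0.73. SERPINB9, SERPINB6 and MCM3 lie in it, and so does HLA-B, an antigen-presenting gene of the interferon list that was higher by 0.42. From TMEM30A to PDCD2, 181 of 298 were higher and 17 lower, with a median of 0.38. Against HEK-control, the first stretch had a median of -0.64 in HEK-Jag1Ndr and 0.08 in HEK-Jag1WT, and the second 0.40 and -0.01. On chromosome 7, 144 of 240 genes from FAM20C to CCT6P3 were higher, with a median of 0.38, and 289 of 423 from ZNF92 to WDR60 were lower, with a median of -0.49. Against HEK-control, the lower stretch of chromosome 7 had a median of 0.16 in HEK-Jag1Ndr and 0.60 in HEK-Jag1WT. The lower stretches of chromosomes 6 and 7 were thus low in HEK-Jag1Ndr in the first case and high in HEK-Jag1WT in the second.

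On chromosome 19, 225 of 320 genes from APC2 to CCDC124 were higher, with a median of 0.45, and 155 of 200 from ANKRD27 to ZNF230 were lower, with a median of -0.78. The stretches' medians against HEK-control were 0.02 and -0.79 in HEK-Jag1Ndr and -0.45 and -0.02 in HEK-Jag1WT. PSENEN, DLL3 and the respiratory chain gene COX6B1, which was lower, with a difference of -0.61, lie in the lower stretch. Chromosome 14 was higher along its whole length, with 325 of 458 genes higher, 21 lower and a median of 0.49, and its block medians were 0.22 in the first block and 0.80 in the last. The longest run of neighbouring genes all called higher lay there, 36 genes from ZC3H14 to DDX24 with a median of 0.80, among them CHGA. On chromosome 20, 201 of 277 genes from BFSP1 to PCMTD2 were higher, with a median of 0.49, and HEK-Jag1Ndr lay at 0.04 and HEK-Jag1WT at -0.45 against HEK-control.

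**Figure D5:**
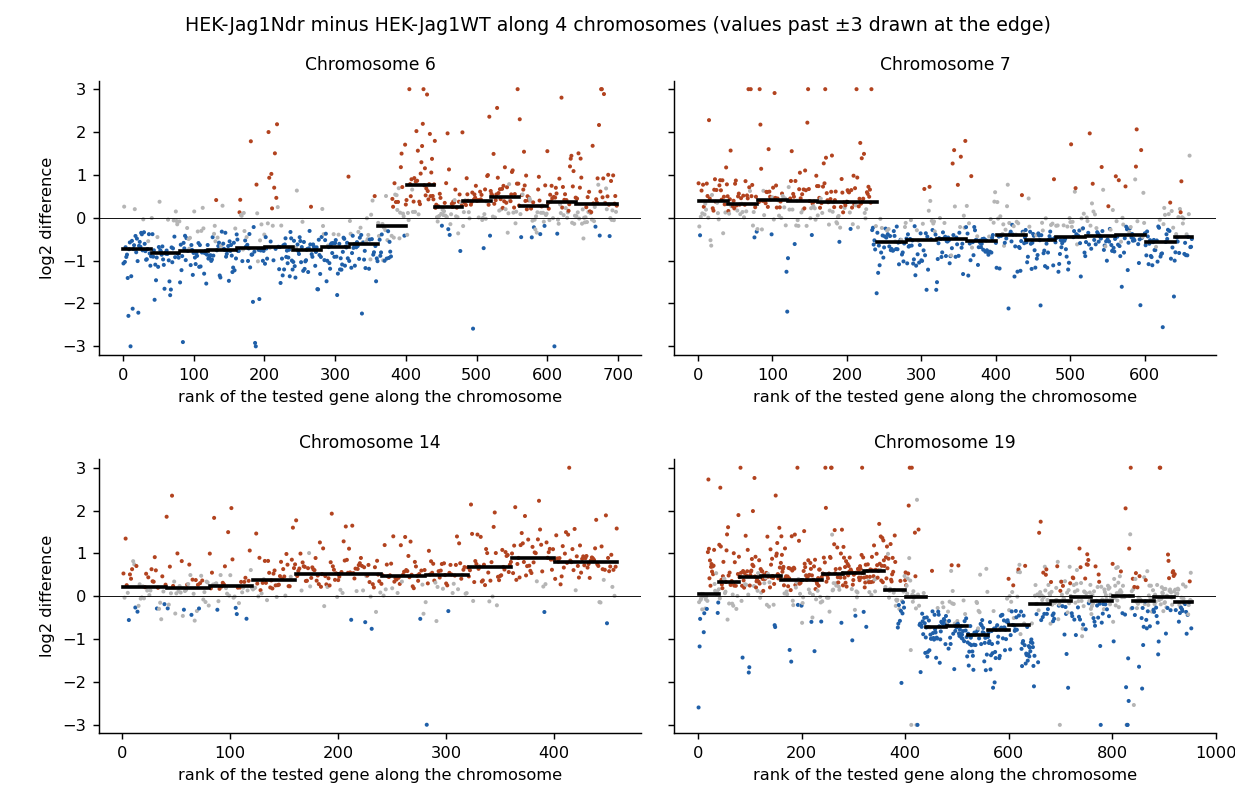
Points are the tested genes of chromosomes 6, 7, 14 and 19 by their rank along the chromosome, with the log2 difference of HEK-Jag1Ndr minus HEK-Jag1WT on the vertical axis and values past 3 drawn at the edge. Orange genes were called higher, blue lower and grey neither, and black bars are medians of blocks of neighbours. The bars step from low to high on chromosome 6, from high to low on chromosome 7, upward along chromosome 14, and down and back on chromosome 19.

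List medians were also taken relative to each gene's neighbours. With the median of a gene's block subtracted, an alternative chosen after seeing the data, the interferon list stood at 0.76, extracellular matrix at 0.67, p53 targets at 0.53, Notch target genes at 0.38 and cell cycle genes at -0.21. The cadherins and integrins moved from 0.59 to 0.20, HOX genes from 0.18 to -0.07 and the clade B serpins from -0.58 to 0.16. Oxidative phosphorylation genes moved from -0.13 to -0.02 and cholesterol synthesis genes from -0.10 to 0.04. Of the placed genes called before the subtraction, 1017 differed by over 2-fold after it, 701 higher and 316 lower. Before it 1378 did, and 892 were in both. The subtracted differences themselves were not tested. PSENEN moved to -0.52 and MCM7 to -0.33, while FN1 stood at 2.13 and IFIH1 at 2.08.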

How the data were processed

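Libraries were prepared from polyA RNA with the TruSeq v2 kit, per the labels. The submitters' processing notes list the genome builds mm9 and hg19 and the aligner STAR; its release, the counting program and how a read was given to a species are not given in any source used here. The authors deposited whole-number counts per gene and RPKM, per the file headers. Of 24303 human entries, 448 exact repeats were left out. Deposited counts were fitted with edgeR 4.0.16 in R 4.3.3 (TMM, filterByExpr, robust quasi-likelihood, Benjamini-Hochberg at 0.05), with terms for HEK line and C2C12 line using the 6 wells (2 residual degrees of freedom), so that wells with the same HEK line stood as replicates. Deposited RPKM gave levels and an alternative fit with limma 3.58.1; DESeq2 1.42.0 was another. Ratios within pairs used a prior count of 2. A group without reads was set to 3 reads, and folds given as at least a value leave out counting error in the other group. Counting intervals cover counting error only. A standard error is the size of the log2 difference divided by the square root of the edgeR F statistic. It understates the error where a line had few reads.

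Named were Jag1 and JAG1, then the 12 highest and 12 lowest called genes by size of difference at a mean log2 CPM of 2 or more with 1 sign in both pairs, then the 4 (or fewer) members of each list with the smallest p; the other members were chosen after their values were seen. The 28 gene lists and the comparison were chosen with earlier results of these data known. No gene or protein sequence was used here. Some genes of the lists are not reported here by name.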

Additional observations from a re-analysis of the deposited data

How the results depend on the processing

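Of 127 genes named by the rule, all were called and 113 kept their call in every alternative fit. Besides those given above, SERPINB1 lost its call with DESeq2 (adjusted p 0.0517), EGR1 without the C2C12 term (edgeR adjusted p 0.107), ALDH1A2 without 1 of 2 wells (up to 0.0718) and MYH3 in 6 fits (up to 0.336). DESeq2 called 4866 genes, 2564 higher and 2302 lower, where edgeR called 7843. With limma on log2(RPKM + 1), 690 genes were over 2-fold, where 1408 were with counts; a pseudocount of 1 shrinks differences of low genes by construction. The Jag1 ratio turned from 1.08 to 0.975 per gene reads of both species. The causes of the other changes were not tested. Without replicate wells one at a time, 6048 to 8313 genes were called, 2956 to 4172 higher, 3066 to 4266 lower and 1382 to 1506 over 2-fold; where a HEK line kept 1 well, that well was assumed to vary like the others. At an adjusted p of 0.01, 22 interferon genes were higher and 1 lower, 30 and 5 matrix genes, and 14 and 1 p53 targets. No pairing beyond the C2C12 term was possible because there was 1 well per combination of lines. Genes with few reads in a line allow only bounds or wide intervals.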

Other observations

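Outside the gene lists, several well expressed genes were on in HEK-Jag1Ndr and low in HEK-Jag1WT; they were chosen after their values were seen. MMP15, a membrane-bound metalloproteinase gene, stood at 9.91 and 7.41 RPKM in the HEK-Jag1WT wells, 149 and 135 RPKM in the HEK-Jag1Ndr wells and 34.7 and 31.2 RPKM in the HEK-control wells, a log2 difference of 4.06 (standard error 0.0706, adjusted p 3.59e-52 by edgeR). NOV, a secreted matrix-associated protein of the family of CTGF, stood at 5.04 and 4.32 RPKM, 89.6 and 105 RPKM and 79 and 84.2 RPKM in that order of lines, a difference of 4.40. SCIN, an actin-severing protein gene, stood at 2.52 and 2.58 RPKM, 47.7 and 55 RPKM and 11.8 and 12.1 RPKM, a difference of 4.35. HEK-Jag1WT was the lowest line for each of them, without overlap between lines, and the control line lay near HEK-Jag1Ndr for NOV and between the Jag1 lines for MMP15 and SCIN.

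RSAD2, the antiviral gene for viperin, stood at 0.649 and 0.486 RPKM in the HEK-Jag1WT wells, 17.2 and 28.5 RPKM in the HEK-Jag1Ndr wells and 3.28 and 4.56 RPKM in the HEK-control wells, a log2 difference of 5.31. PTGS2, the inducible cyclooxygenase gene, stood at 0.846 and 1.87 RPKM, 18 and 31.3 RPKM and 3.7 and 5.96 RPKM, a difference of 4.19, and was higher beside C2C12-Notch1 in each HEK line. ANXA1, a phospholipid-binding protein gene, differed by 3.78 and EMP1 by 4.04. In the other direction, ALDH1L2, a mitochondrial folate enzyme, stood at 13.3 and 13.3 RPKM in HEK-Jag1WT against 1.66 and 1.83 RPKM in HEK-Jag1Ndr, a difference of -2.90, and ANXA3 stood at 50.9 and 48.5 RPKM against 10.3 and 9.4 RPKM, a difference of -2.30.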
